A study of Mus musculus with 12 samples.

Results

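The proteasome genes described here were the genes whose symbol begins with Psma, Psmb, Psmc, Psmd or Psme followed by a digit. By that rule 44 genes with 72 probes were found among the 19087 named genes and 41174 probes of the array. All 44 genes could be tested, on 70 of the 72 probes, and 20 of them had a value on every array. Of the 44, 42 are proteasome subunits, activators or dedicated assembly chaperones. The remaining pair is Psmc3ip, a cofactor of meiotic recombination named for binding to Psmc3, and Psme3ip1, which encodes a partner of the activator Psme3. Psme2 was not analysed here.

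Cardiac ventricle was taken from 6 control mice labelled AMPK alpha 2 +/+ (WT) and 6 mice labelled AMPK alpha 2 -/- (KO), with 1 array for each animal. AMPK is a kinase that responds to a fall in cellular energy, and alpha 2 is one of its catalytic subunits. All 12 mice were of the strain C57B6, 7 months old, kept on standard chow and killed under pentobarbital. The labels do not give how the allele was made or in which cells it acts. Heart RNA was compared on each 2-colour array with a common reference, a commercial pool of RNA from 11 mouse cell lines. Heart RNA carried the dye Cy3 in replicates 1 to 3 of each genotype and Cy5 in replicates 4 to 6. The tissue is a mixture of cells, so a lower value may come from fewer cells of a type or from less RNA in each cell, and these cannot be told apart.

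The 26S proteasome degrades proteins tagged with ubiquitin. Its 20S core is a barrel of alpha and beta rings, and only Psmb5, Psmb6 and Psmb7 of the beta ring carry the constitutive proteolytic sites. Under interferon gamma, and in cells of the haematopoietic lineage, newly assembled cores can take up Psmb8, Psmb9 and Psmb10 at those positions, which makes the immunoproteasome. The 19S cap adds a ring of ATPases (Psmc genes), which unfold substrates, and non-ATPase subunits (Psmd genes), which bind and remove ubiquitin. The Psme genes encode other activators of the core. In heart muscle the proteasome turns over sarcomeric and regulatory proteins.

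The promoters of the immune catalytic subunits and of Psmb5, the constitutive counterpart of Psmb8, are shown as genes of the within-array comparisons below. Those comparisons also use Psmb6 and Psmb7, whose promoters are not shown. The sequences are from RefSeq, build GRCm38.p6, and run from 250 bases before to 50 bases after the annotated start, 5′ to 3′ on the strand of the gene. Psmb8 lies at chr17:34197945-34198244 on the plus strand, Psmb9 at chr17:34187281-34187580 on the minus strand, Psmb10 at chr8:105938343-105938642 on the minus strand and Psmb5 at chr14:54617946-54618245 on the minus strand. Capitals mark a match to the gamma-activated site (TTCNNNGAA), the interferon-stimulated response element (GAAA, any 2 bases, GAAA) or the antioxidant response element (TGACNNNGC), each searched on both strands.
Psmb8: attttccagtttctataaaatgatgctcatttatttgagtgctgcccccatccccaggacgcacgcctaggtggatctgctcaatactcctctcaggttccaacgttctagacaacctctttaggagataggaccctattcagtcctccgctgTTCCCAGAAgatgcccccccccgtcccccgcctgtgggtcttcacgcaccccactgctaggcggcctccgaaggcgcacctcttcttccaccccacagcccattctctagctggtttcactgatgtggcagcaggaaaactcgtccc
Psmb9: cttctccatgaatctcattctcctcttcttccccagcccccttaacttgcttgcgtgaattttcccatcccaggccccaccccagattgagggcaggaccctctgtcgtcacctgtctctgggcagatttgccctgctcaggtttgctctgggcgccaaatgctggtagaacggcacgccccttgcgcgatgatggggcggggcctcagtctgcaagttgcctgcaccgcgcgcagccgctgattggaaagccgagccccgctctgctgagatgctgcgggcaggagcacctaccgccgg
Psmb10: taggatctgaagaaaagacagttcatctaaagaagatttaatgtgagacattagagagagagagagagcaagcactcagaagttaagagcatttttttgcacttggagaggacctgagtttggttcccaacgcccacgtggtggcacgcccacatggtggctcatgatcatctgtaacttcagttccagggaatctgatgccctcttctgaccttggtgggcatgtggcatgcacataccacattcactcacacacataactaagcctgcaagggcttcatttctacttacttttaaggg
Psmb5: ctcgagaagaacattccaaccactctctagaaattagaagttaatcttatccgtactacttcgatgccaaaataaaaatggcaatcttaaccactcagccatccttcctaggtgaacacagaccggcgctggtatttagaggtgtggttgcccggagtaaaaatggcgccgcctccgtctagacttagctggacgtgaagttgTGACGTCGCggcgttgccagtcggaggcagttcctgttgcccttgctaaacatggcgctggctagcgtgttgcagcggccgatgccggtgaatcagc

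The Psmb8 window held 1 gamma-activated site, TTCCCAGAA, which began at position -97 from the start. The Psmb5 window held 1 antioxidant response element, TGACGTCGC, which began at position -47. None of those 3 patterns was present in the Psmb9 and Psmb10 windows. The Psmb9 window overlaps by 275 bases the window of Tap1, the peptide transporter gene that runs from the opposite strand (chr17:34187306-34187605).

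Windows were available for 37 of the 44 genes, 40 windows in all, and were set beside 32851 windows of all genes. The gamma-activated site was found in Psmb8 and Psmd2, which is 5.0% of the 40 windows, and in 8.3% of all windows. The interferon-stimulated response element was found in Psmb3, Psmd4, Psmd9 and Psme1, and in 3.44% of all windows. The antioxidant response element, the pattern bound by factors of the Nfe2l family, was found in 6 genes (Psmb5, Psmb6, Psmc6, Psmd12, Psmd9 and Psme4). That is 15.0% of the 40 windows, against 12.39% of all windows. The CCAAT box (CCAAT) was in 16 of the 37 genes and 40.0% of the 40 windows, against 37.41% of all windows. The GC box (GGGCGG) was in 22 of the 37 genes and 55.0% of the 40 windows, against 35.66% of all windows. A match is a string of letters and not a measured binding site.

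Values are log ratios of heart over reference, as deposited by the authors and read here as log2. Between 0.306% and 41.7% of cells were empty on an array, most in KO replicate 4 and WT replicate 3, and between 28 and 44 of the proteasome genes were measured. The targeted gene Prkaa2 had log2 ratios of 3.99 to 4.23 in the 6 WT and of 3.58 to 4.27 in the 5 KO arrays that measured it, so the groups overlapped and its single probe did not separate the labels. The difference was -0.18 ± 0.10 (SE, limma adjusted p = 0.937), and whether the probe lies in the deleted stretch was not known here. WT and KO below therefore mean the arrays so labelled. All 9 cardiomyocyte markers were above the reference (median 5.61) and all 8 markers of cycling cells below it (median -3.19). WT replicate 2 had the highest median of atrium and of fat markers, KO replicate 1 the next highest of atrium, and KO replicate 6 the highest of lung and of liver.

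In the ventricle, most proteasome genes lay within 1 log2 unit of the reference cell lines, with a different order for each part of the particle. A gene's level here is its log2 ratio averaged with equal weight over genotype and dye. The median over all probes of an array lay between -0.029 and 0.068. A ratio of 0 thus marks the middle of an array and not an equal amount of RNA, and above and below are relative to it. Of the 44 genes, 21 were above the reference and 12 below it at an adjusted p under 0.05, and 11 did not pass. Over all 25821 features the test called 51.4%, with 24.8% above and 26.6% below, so the share below (12 of 44) was near the background and the share above was higher. The median level was 0.045, against 0.021 over all features. Only 3 of the 44 (Psme4, Psmc3ip and Psmd5) were 1 log2 unit or more away from the reference, against 14.6% of all features. On every measured array 18 genes were above 0, where the same held for 17.6% of all features.

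**Figure D1:**
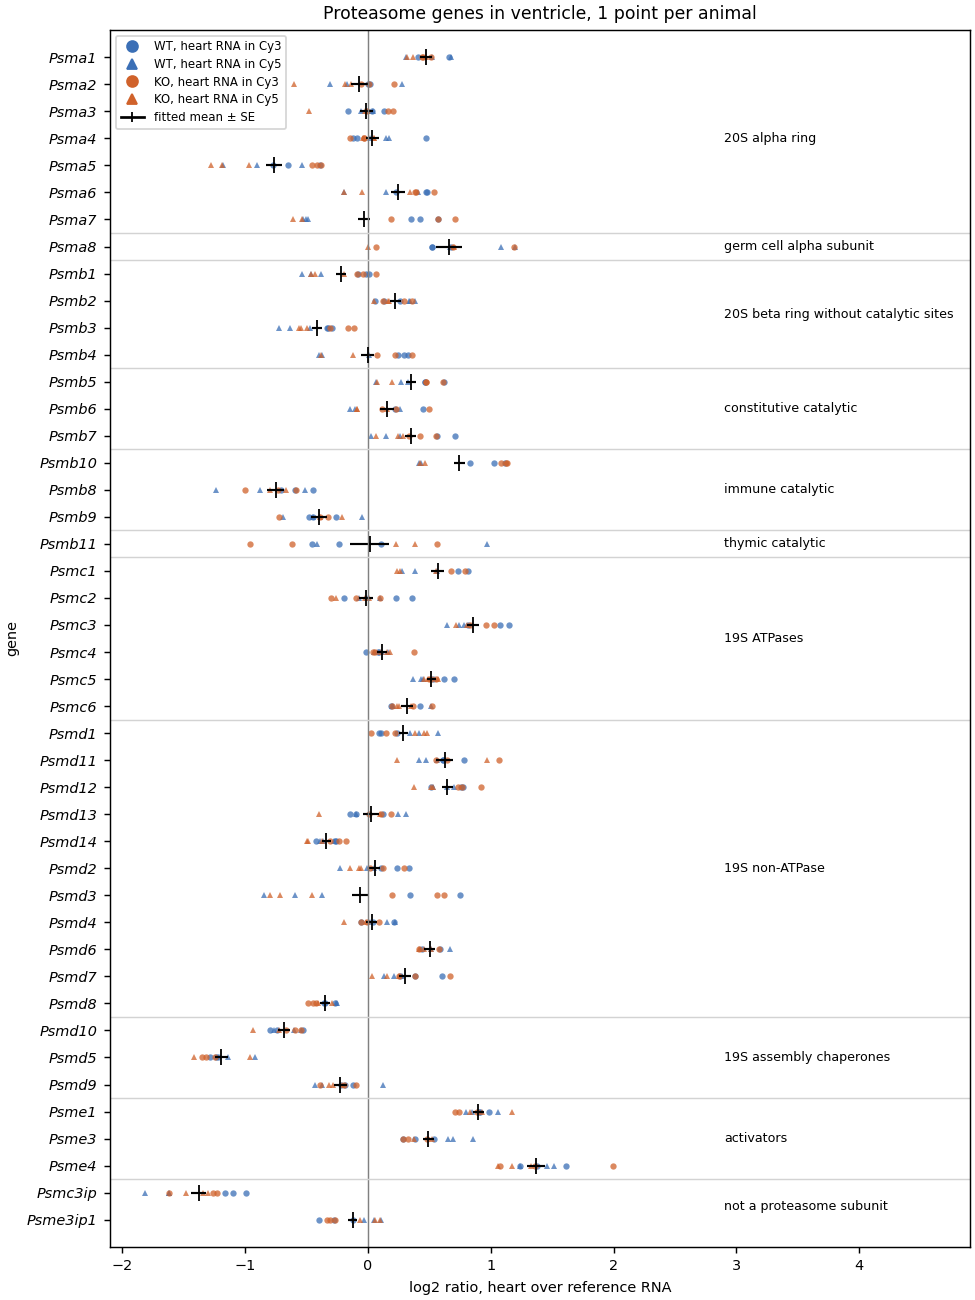
Log2 ratio of heart over reference RNA (horizontal axis) for each of 44 genes, grouped by role, with 1 point per animal (WT blue, KO orange, circles with heart RNA in Cy3, triangles in Cy5) and the fitted mean ± SE in black. Psme4 lies furthest to the right of 0 at 1.37 and Psmc3ip furthest to the left at -1.38, and WT and KO points are mixed in every row.

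The activators of the core were all above the reference. Psme4, which encodes PA200, a nuclear cap that opens the core without ATP, had log2 ratios of 1.24 to 1.62 in WT (median 1.41) and of 1.06 to 2.00 in KO (median 1.25), each in 6 animals. Every animal was therefore above the reference by more than 1 log2 unit, at a mean of 1.37 ± 0.07 (SE, limma adjusted p = 5.73e-10) or 2.58-fold. Its 4 probes were far apart, with levels of 0.005, 0.855, 1.898 and 2.58, the widest spread among the 18 genes with several tested probes (median spread 0.31). In 8 of these 18 genes the probes lay on opposite sides of the reference (Psma2, Psma3, Psma4, Psmc2, Psmd4, Psmd9, Psmd14 and Psme3ip1). The SE of a level leaves out this spread between probes. Psme1, a subunit of the interferon-inducible PA28 cap, ranged from 0.80 to 1.06 in WT (median 0.91) and from 0.71 to 1.18 in KO (median 0.86), with a mean of 0.90 ± 0.05 (limma adjusted p = 4.0e-10). The nuclear PA28 gene Psme3 was at 0.49 ± 0.05 (limma adjusted p = 9.05e-07) and above 0 on every array.

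Among the 19S ATPases 5 of 6 were above the reference and 0 below (median 0.42). Psmc3 was the highest of them, with 0.64 to 1.15 in the 6 WT animals (median 0.80) and 0.72, 0.81, 0.83, 0.96 and 1.03 in the 5 measured KO animals. All 11 values were thus above the reference, at a mean of 0.86 ± 0.05 (SE, limma adjusted p = 1.86e-09). Psmc1 was at 0.57, Psmc5 at 0.52, Psmc6 at 0.32 and Psmc4 at 0.12, while Psmc2, at -0.01 ± 0.06, did not pass. The 2 Psmc2 probes were at -0.21 and 0.29. The call of Psmc4 was lost in both dye orientations taken alone (adjusted p = 0.25 and 0.123), without the 3 arrays with markers of other tissues (0.135), without WT replicate 1 (0.0513) and without KO replicate 1 (0.0593).

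The 11 non-ATPase subunits of the 19S cap were divided, with 5 above, 2 below and 4 not called (median 0.05). Psmd12 and Psmd11, which encode scaffold subunits of the lid, were at 0.65 ± 0.04 and 0.63 ± 0.07 (limma adjusted p = 1.22e-08 and 3.3e-06). Psmd6 was at 0.50, Psmd7 at 0.30 and Psmd1, a large subunit of the base, at 0.29. Below the reference were Psmd14, the deubiquitinase that cuts ubiquitin chains from substrates, at -0.34 ± 0.04, and Psmd8, at -0.35 ± 0.04. The 3 Psmd14 probes ran from -0.59 to 0.16, so its direction depended on the probe. The ubiquitin receptor gene Psmd4 was at 0.03 ± 0.05 and did not pass, with its 2 probes at -0.14 and 0.20.

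The 3 chaperones that help to assemble the 19S base, by contrast, were all below the reference. Psmd5 had values of -1.29, -1.24, -1.22, -1.14 and -0.92 in 5 WT animals and of -1.42, -1.35, -1.32, -1.25 and -0.96 in 5 KO animals. None of the 10 reached the reference, and the mean was -1.19 ± 0.05 (SE, limma adjusted p = 1.17e-09), or 2.29-fold below. Psmd10, also known as gankyrin, was at -0.68 ± 0.05 and Psmd9 at -0.22 ± 0.05 (limma adjusted p = 4.67e-08 and 0.0017). The 3 Psmd9 probes ran from -0.42 to 0.05. Psmc3ip, which has no role in the particle, was the lowest gene of the set at -1.38 ± 0.06, and Psme3ip1 was at -0.12 ± 0.04. The Psme3ip1 call was lost without the dye term, without KO replicate 4 and WT replicate 3 together, and without the 3 arrays with markers of other tissues (adjusted p = 0.0558 to 0.0958).

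In the 20S core the alpha ring stood near the reference, with 2 of 7 genes above, 1 below and 4 not called (median -0.01). Psma1 was at 0.47 ± 0.05 and Psma6 at 0.24 ± 0.06. Psma5 ranged from -1.18 to -0.39 in the 6 WT animals (median -0.71) and from -1.28 to -0.38 in the 6 KO animals (median -0.71), and was below the reference in all 12 (mean -0.76 ± 0.07, limma adjusted p = 1.21e-07). Among beta subunits without a catalytic site, Psmb2 was above (0.22 ± 0.04), Psmb1 and Psmb3 below (-0.22 ± 0.04 and -0.41 ± 0.04), and Psmb4 not called. The 2 Psmb3 probes were at -0.76 and -0.07. Psmb1 was not called in Cy3 alone, at -0.03 (adjusted p = 0.741).

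A pair of core subunits is known for other tissues. Psma8, an alpha subunit of germ cells, had log2 ratios of 0.52 to 1.19 in the 6 WT animals (median 0.67) and of 0.003, 0.068, 0.69, 0.70 and 1.19 in 5 KO animals, with a mean of 0.66 ± 0.11 (SE, limma adjusted p = 0.000151). The KO values thus overlapped those of WT, and 2 of them lay below the lowest WT value. Psmb11, the catalytic subunit of the thymic cortex, was at 0.01 ± 0.16 and did not pass, with values from -0.96 to 0.97. Its residual SD of 0.59 was the largest of the set. Of the 7 measured thymus markers 1 was called above the reference and 1 below (median 0.01). Log ratios without intensities do not show that either RNA was present, for Psmb11 near 0 or for Psma8 above it.

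The dye orientation of the heart RNA moved some of these levels, a comparison chosen after the data were seen. The dye term passed an adjusted p of 0.05 for 10 of the 44 genes, against 5.71% of all features. Of the 10, 8 were higher with heart RNA in Cy3 and 2 (Psmd1 and Psme3ip1) with heart RNA in Cy5. Psmd3, a 19S lid subunit, was at 0.20 to 0.75 on the 5 measured Cy3 arrays and at -0.84 to -0.38 on the 6 Cy5 arrays, which do not overlap (difference -1.13 ± 0.13, SE, limma adjusted p = 0.0015). Psma7 was at 0.19 to 0.71 on 6 Cy3 arrays and at -0.61 to -0.49 on 5 Cy5 arrays (difference -1.002 ± 0.10, limma adjusted p = 0.00124). For both genes the 2 orientations placed the heart on opposite sides of the reference, so no direction can be given.

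Opposite sides were seen in 10 of the 44 genes, against 28.0% of all features, and 31 of the 33 genes with a called level kept 1 side in both orientations. The exceptions were Psmb6, whose Cy5 mean was -0.001, and Psme3ip1, whose Cy5 mean was 0.036. A level averages the 2 orientations, so calling it already favours genes that keep 1 side. The count of 31 is therefore a description and no check of the calls. The immune subunit gene Psmb10 kept its side but not its size, at 0.83 to 1.14 on 6 Cy3 arrays and 0.41 to 0.46 on 4 Cy5 arrays (difference -0.62 ± 0.09, limma adjusted p = 0.00531). The dye count depended on the arrays used. It was 5 without KO replicate 4 and WT replicate 3 together, 2 without the 3 arrays with markers of other tissues, and 4 to 11 without single animals. It was 4 without KO replicate 5, 5 without WT replicate 3 or KO replicate 2, and 6 without WT replicates 1, 2, 4 or 6 or KO replicates 1 or 6. Leaving out KO replicate 4, KO replicate 3 or WT replicate 5 gave 7, 8 and 11. It was also 5 among the features with a value on all arrays.

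**Figure D2:**
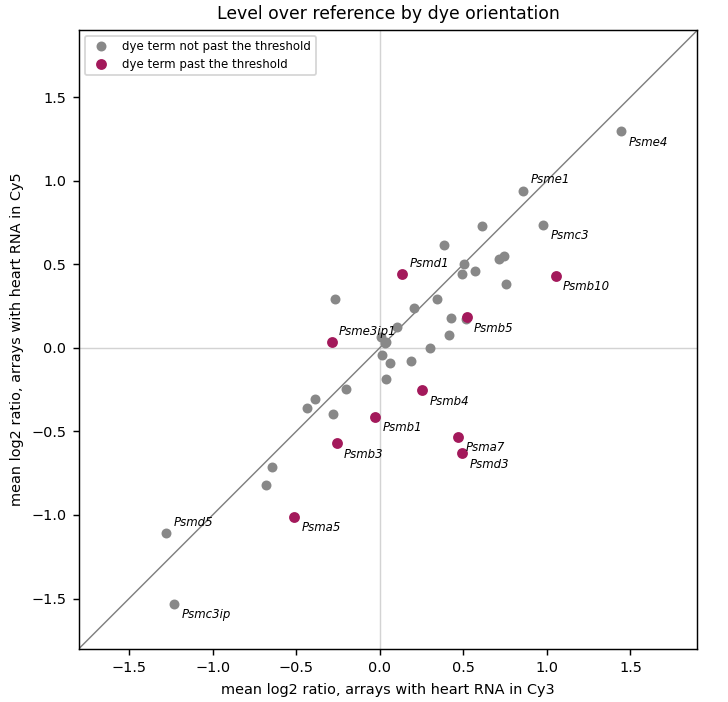
Mean log2 ratio of heart over reference for 44 genes on arrays with heart RNA in Cy3 (horizontal axis) and in Cy5 (vertical axis), 1 point per gene, with the diagonal of equal values. Purple points are the 10 genes with an adjusted p under 0.05 for the dye term, and Psma7 and Psmd3 lie far below the diagonal, on opposite sides of 0 in the 2 orientations.

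The constitutive catalytic genes were all above the reference, whereas 2 of the 3 immune catalytic genes were below it. Psmb5, which carries the chymotrypsin-like site, ranged from 0.06 to 0.62 in 6 WT animals (median 0.39) and was 0.07, 0.20, 0.47, 0.48 and 0.61 in 5 KO animals. All 11 values were above 0, at a mean of 0.35 ± 0.04 (SE, limma adjusted p = 1.14e-05). Psmb7, which carries the trypsin-like site, was also above 0 in 11 of 11 animals, from 0.03 to 0.71 in WT and from 0.07 to 0.56 in KO (mean 0.35 ± 0.05, limma adjusted p = 2.93e-05). With heart RNA in Cy5 alone these 2 means were 0.18 and 0.17 and neither passed (adjusted p = 0.115 and 0.0712). Psmb6, which carries the caspase-like site, was at 0.15 ± 0.06 (limma adjusted p = 0.0366), above 0 in 7 of 11 animals. That call was lost without the dye term and without WT replicates 1 or 5 or KO replicates 2 or 6 (adjusted p = 0.0717 to 0.128).

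Psmb8, which replaces Psmb5, had log2 ratios of -1.23 to -0.45 in the 6 WT animals (median -0.65) and of -0.998, -0.801, -0.73, -0.67 and -0.59 in 5 KO animals. It was below the reference in all 11, at a mean of -0.75 ± 0.07 (SE, limma adjusted p = 5.64e-07), and its 2 probes gave -0.82 and -0.69. Psmb9, which replaces Psmb6, ranged from -0.69 to -0.05 in WT (median -0.45) and was -0.72, -0.39, -0.39, -0.33 and -0.21 in KO (mean -0.40 ± 0.06, limma adjusted p = 0.000123). Psmb10, which replaces Psmb7, went the other way and was above the reference in all 10 measured animals (mean 0.74 ± 0.05, limma adjusted p = 2.16e-08). It was 0.41, 0.43, 0.83, 1.02 and 1.12 in WT and 0.42, 0.46, 1.08, 1.12 and 1.14 in KO. In each genotype the 2 lowest of these values were the Cy5 arrays.

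**Figure D3:**
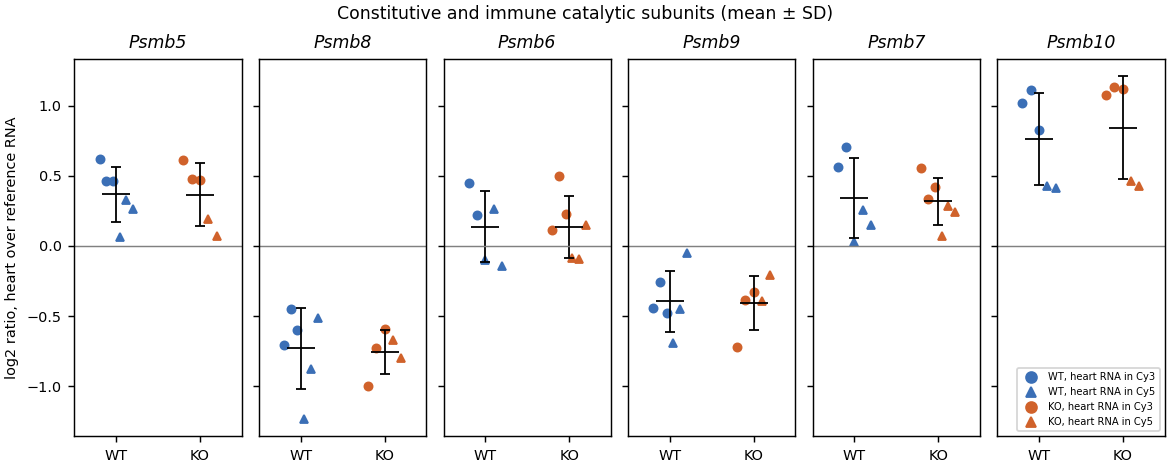
Log2 ratio of heart over reference RNA (vertical axis) for each constitutive catalytic gene beside its immune counterpart, 1 point per animal, with the mean ± SD of each genotype. Psmb8 and Psmb9 lie below 0 in every measured animal and Psmb10 above 0, and within each gene the WT and KO points overlap.

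Within an array, the log ratio of the constitutive gene was subtracted from that of its immune counterpart. Such a difference says how unequally the pair stands against the reference, and not which RNA is more abundant. Psmb8 minus Psmb5 was below 0 in 11 of 11 animals, from -1.61 to -0.78, with a WT mean of -1.10 ± 0.22 (SD, n = 6) and a KO mean of -1.12 ± 0.31 (SD, n = 5). Psmb9 minus Psmb6 was below 0 in 9 of 10 animals, from -0.90 to 0.10, where WT replicate 6 was the exception. Psmb10 minus Psmb7 was above 0 in 9 of 9 animals, from 0.15 to 0.80. The pairs thus fell on both sides of 0, with Psmb10 apart from the other immune genes.

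None of the 3 within-array differences passed the test between KO and WT. Genotypes were compared within each dye orientation and the results averaged, so an estimate can depart from the gap between the plain means of the groups. Between genotypes Psmb8 minus Psmb5 differed by -0.007 (two-sided exact permutation test within dye orientation, p = 0.98 over 200 relabellings, smallest possible 0.005). Psmb9 minus Psmb6 had a WT mean of -0.52 ± 0.38 (SD, n = 5), a KO mean of -0.59 ± 0.27 (SD, n = 5) and a difference within dye orientation of -0.002 (exact p = 0.98, smallest possible 0.01). Psmb10 minus Psmb7 had a WT mean of 0.36 ± 0.14 (SD, n = 4), a KO mean of 0.48 ± 0.29 (SD, n = 5) and a difference within dye orientation of 0.087 (exact p = 0.383, smallest possible 0.0167). Adjusted over the 3 pairs each p was 0.98, and the last pair alone could not have passed after adjustment. Psmb8 minus Psmb5 differed by -0.19 with heart RNA in Cy3 and by 0.22 in Cy5, so the 2 orientations gave opposite signs. Leaving out single animals moved it between -0.07 and 0.10, and Psmb9 minus Psmb6 between -0.08 and 0.10.

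Psmb8 and Psmb9 lie close together on chromosome 17 within the class II region of the major histocompatibility complex. The start of Tap1 lies between their starts. Their values were correlated between animals, but the permutation that kept genotype and dye apart did not pass after adjustment. Each value was first set relative to the mean of its genotype and dye, with 11 animals measured for both. WT replicate 6 was highest for both genes (0.36 and 0.35), WT replicate 4 lowest for both (-0.36 and -0.30), and KO replicate 1 second lowest (-0.22 and -0.24). Pearson's r was 0.905 (permutation p = 2e-04, adjusted p = 6e-04 over 3 pairs) and Spearman's rho 0.764 (permutation p = 0.00855, adjusted p = 0.0256). These permutations exchanged the centred values freely among the 11 animals. Centring ties the values of a group to each other, so these p-values are likely too small. Without WT replicates 6 and 4, the farthest from the median, r was 0.751 in 9 animals. It was 0.940 in the 6 animals of the Cy3 orientation, and the 5 in Cy5 were too few for a value. When values were exchanged only within each combination of genotype and dye, as an alternative chosen after the data were seen, the exact permutation p was 0.0208 and 0.0625 after adjustment, which does not pass.

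**Figure D4:**
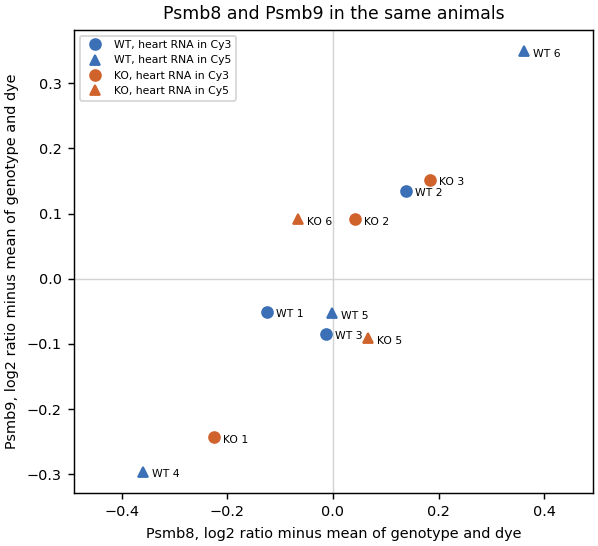
Psmb8 (horizontal axis) against Psmb9 (vertical axis), each as log2 ratio minus the mean of its genotype and dye, 1 labelled point for each of 11 animals. WT replicate 6 is at the upper right and WT replicate 4 at the lower left, with the other animals between them.

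Neither comparison with the third immune gene passed. Psmb10 lies on another chromosome and had r = 0.265 with Psmb8 (permutation adjusted p = 0.485) and r = 0.402 with Psmb9 (permutation adjusted p = 0.385), each in 10 animals. Without WT replicate 2, r of Psmb8 with Psmb10 was -0.025. The median of 10 measured leukocyte markers was highest in WT replicate 6, at -0.24, and was lowest in KO replicate 1, at -0.85. It was -0.75 in WT replicate 4, WT replicate 5 and KO replicate 6, of which WT replicate 4 had the lowest values of both genes and WT replicate 5 lay near its group means. Relative to its group means KO replicate 6 was at 0.092 for Psmb9 and at -0.0665 for Psmb8. The leukocyte median, which was not set relative to genotype and dye, ranged from -0.75 to -0.24 in WT and from -0.85 to -0.56 in KO. Of the 10 markers 6 were called below the reference and 1 above, with the leukocyte antigen gene Ptprc at -1.46 and the macrophage lysozyme gene Lyz2 at 2.10. The part of leukocytes in the variation of Psmb8 and Psmb9 was not tested.

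No proteasome gene passed the test between KO and WT. At an adjusted p under 0.05 the genotype term called 0 of the 44 genes, against 0.00387% of all features, which is 1 of 25821. At an unadjusted p under 0.05 it called 0 of 44, against 5.33% of all features. Adjusted p-values ran from 0.942 to 0.999 (limma). WT and KO values overlapped for all 44 genes, where 0.465% of all features had groups that did not overlap.

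The estimated differences were small. They ranged from -0.24 for Psma8 to 0.10 for Psmd11, with a median SE of 0.10 against 0.13 over all features. For 42 of the 44 genes the 95% interval lay between -0.5 and 0.5 on the log2 scale, as it did for 73.1% of all features. The exceptions were Psma8 (-0.71 to 0.23) and Psmb11 (-0.75 to 0.60), so differences of that size are not excluded for these 2 genes. The spread left between animals after the genotype and dye terms was also small, with a median residual SD of 0.14 against 0.22 over all features. With dye left in, animals of 1 genotype could differ widely, as for Psmd3, with an SD of 0.67 in WT and 0.64 in KO.

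Of the 44 estimates 37 were below 0 and 7 above, against 50.3% below over all features. The median was -0.039, against -0.0009 over all features. The genes were measured on the same arrays, so the count is a description with no test. With heart RNA in Cy3 alone the share below 0 was 54.5%, and in Cy5 alone 68.2%, against 84.1% with all arrays. The median over the measured proteasome genes of an array, here without Psmc3ip and Psme3ip1, overlapped between genotypes. It was 0.02, 0.12, 0.14, 0.22, 0.26 and 0.34 in WT and 0.03, 0.04, 0.06, 0.19, 0.22 and 0.29 in KO.

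**Figure D5:**
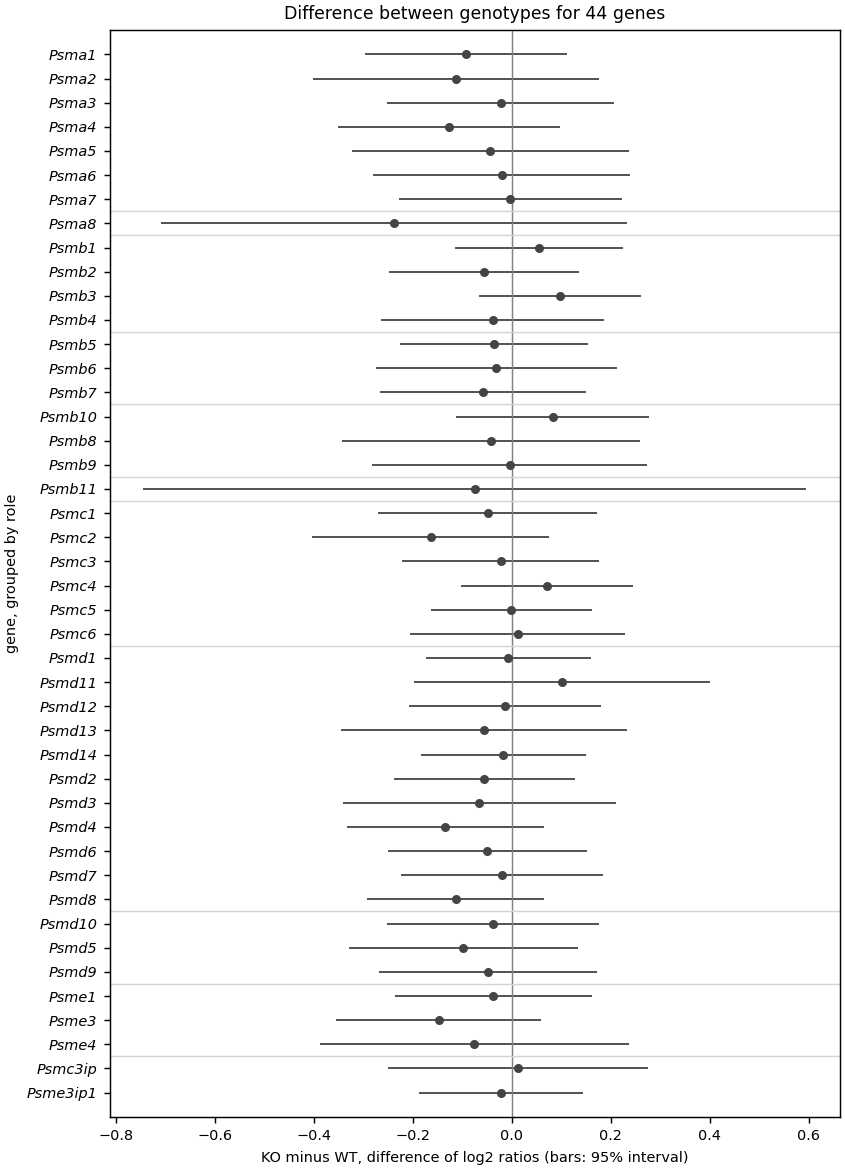
Difference of log2 ratios, KO minus WT (horizontal axis), for 44 genes grouped by role, with the estimate as a point and its 95% interval as a bar. Every interval includes 0, and most points lie slightly to the left of it, between -0.24 and 0.10.

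The genes of smallest p in each role lay within the spread of the animals. Psme3 had log2 ratios of 0.28 to 0.85 in WT (median 0.59) and of 0.28 to 0.52 in KO, which differed by -0.15 ± 0.10 (limma SE, adjusted p = 0.942, unadjusted p = 0.146). The ATPase gene Psmc2 ranged from -0.19 to 0.35 in WT (median 0.04) and from -0.30 to 0.10 in KO (median -0.06), a difference of -0.16 ± 0.11 (unadjusted p = 0.161 in limma). In both genes the lower part of the WT range was shared with KO. Other estimates were -0.13 ± 0.09 for Psmd4, -0.11 ± 0.08 for Psmd8, -0.13 ± 0.10 for Psma4, -0.09 ± 0.09 for Psma1, -0.10 ± 0.11 for Psmd5, -0.05 ± 0.10 for Psmd9, 0.10 ± 0.08 for Psmb3, 0.055 ± 0.08 for Psmb1 and 0.07 ± 0.08 for Psmc4. The widest errors were those of Psma8 (-0.24 ± 0.22) and Psmb11 (-0.075 ± 0.31), while Psmc3ip differed by 0.012 ± 0.12 and Psme3ip1 by -0.023 ± 0.08. Psmb2, the 1 gene of the set on chromosome 4 with Prkaa2 and 230 measured genes from it, differed by -0.06 ± 0.09.

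By role, 7 of 7 alpha ring genes were estimated lower in KO (median -0.04), as were 3 of 3 constitutive catalytic genes (-0.04), 10 of 11 non-ATPase genes (-0.05), 3 of 3 chaperones (-0.05) and 3 of 3 activators (-0.08). The ATPases had 4 lower and 2 higher (-0.01), the beta subunits without a catalytic site 2 and 2 (0.01), and the immune catalytic genes 2 and 1 (-0.005). None of these genes passed the test. Among the catalytic genes the differences were -0.04 ± 0.09 for Psmb5, -0.03 ± 0.11 for Psmb6, -0.06 ± 0.10 for Psmb7, -0.04 ± 0.14 for Psmb8, -0.005 ± 0.13 for Psmb9 and 0.08 ± 0.09 for Psmb10. Psme1 differed by -0.04 ± 0.09 and Psme4 by -0.08 ± 0.14.

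Genes that work around the particle gave 0 calls between genotypes either. Of 13 measured assembly factors and cofactors 0 passed, with 8 estimated lower and 5 higher in KO (median -0.006). They include the core assembly factor Pomp (-0.13 ± 0.12), the proteasome-bound deubiquitinase Uchl5 (-0.13 ± 0.09), the small 19S subunit Sem1 (-0.17 ± 0.13) and the stress-induced cofactor Zfand5 (-0.14 ± 0.08). Their levels over the reference were divided, with 5 above, 4 below and 4 not called. Of the core assembly chaperones, Psmg3 and Psmg4 were below the reference, at -0.93 and -0.77, Psmg1 and Psmg2 were not called, at -0.08 and -0.09, and Pomp was above it, at 0.19.

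Of 8 measured genes of ubiquitin supply and delivery 0 passed, with 4 lower and 4 higher in KO (median -0.03). The shuttle receptor genes Ubqln2 and Ubqln1 differed by -0.16 ± 0.10 and -0.12 ± 0.08. The segregase Vcp and its cofactor Nploc4 differed by 0.02 ± 0.09 and -0.11 ± 0.08. Of 5 regulators of subunit transcription 0 passed (3 lower, 2 higher, median -0.04). Among them Nfe2l1, the factor that raises subunit transcription when the proteasome is inhibited, had the highest level over the reference, at 1.78 ± 0.06, in all 12 animals, and differed by 0.07 ± 0.11 between genotypes. Its relative Nfe2l2, which drives antioxidant genes, differed by -0.09 ± 0.11, and Keap1, the adaptor that marks Nfe2l2 for degradation, by -0.05 ± 0.08.

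Of 13 measured genes of class I antigen presentation and the interferon gamma response 0 passed, with 5 lower and 8 higher in KO (median 0.08). Irf8, an interferon-regulated transcription factor of leukocytes, had the smallest p, at 0.19 ± 0.08 (limma adjusted p = 0.93, unadjusted p = 0.0404). Tap1, which faces Psmb9 on the chromosome, was below the reference at -0.46 ± 0.08 and differed by -0.28 ± 0.17, while its partner Tap2 differed by 0.15 ± 0.10. B2m, the light chain of class I molecules, was below the reference at -0.60 ± 0.08. Other interferon-linked genes were above it, with the receptor chain Ifngr2 at 1.97, the chemokine gene Cxcl9 at 1.09 and the GTPase gene Gbp2 at 1.04, so the list did not move to one side of the reference.

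Markers of the other cell types a ventricle can hold also gave 0 calls between genotypes. Over all features 5.33% had an unadjusted p under 0.05 and 50.3% an estimate below 0. Endothelial markers were estimated higher in KO in 6 of 6 genes (median 0.21), 3 of them at an unadjusted p under 0.05, and cycling cell markers lower in 7 of 8 (-0.19), 2 at an unadjusted p under 0.05. Leukocyte markers were lower in 7 of 10 (-0.08) and cardiomyocyte markers lower in 6 of 9. Of the thymus markers 2 of 7 had an unadjusted p under 0.05, in opposite directions. Markers of atrium, lung, liver and fat had medians of 0.19, 0.69, 1.17 and -0.53 and 0 at an unadjusted p under 0.05. Single arrays stood far out in the last 3 lists. The median level over the markers was 4.76 (lung) and 4.64 (liver) in KO replicate 6, and 3.81 (fat) in WT replicate 2. Without single animals the difference of the liver gene Apoa1 ranged from 0.03 to 1.67. The part of these cell types in the proteasome values was not tested.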

How the data were processed

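Total RNA of cardiac ventricle from 12 mice was measured on 2-colour arrays, 1 array per animal. Per the labels' protocols, 1 µg of RNA was amplified and labelled by an Agilent kit, spike-ins included, and the dye swap used distinct animals. The authors deposited 1 log ratio per probe and array, read here as log2. The base is not stated and natural logs were not excluded, which would scale every difference and its error alike. How background was corrected, arrays were normalized and cells were emptied, and with which software, is not given in the sources used here. No scanner intensities were used. Columns already shared 1 direction, heart over reference: arrays of opposite dye correlated at 0.835 to 0.936 over probes.

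Probes were named through the platform annotation, in which 31700 probes have 1 symbol, 47 several and 9427 none. Entrez identifiers of 31564 probes matched RefSeq, and 0 symbols were updated. Probes needed at least 2 values in each combination of genotype and dye, which kept 36826. Probes of a gene were summarised by an additive fit of probe and array, giving 25821 features. limma 3.58.1 (R 4.3.3) fitted genotype and dye orientation on all 12 arrays with lmFit and eBayes. Two-sided p-values were adjusted across all features (Benjamini-Hochberg) at 0.05. Errors are moderated SEs unless named SD. The level test leaves out the spread of the 1 reference RNA.

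Within-array differences were tested by exact permutation, and correlations with 1e+05 permutations. The pipeline was tested on simulated data. Values written out in full were those of the targeted gene, the 3 highest and 3 lowest genes over the reference, Psmb5 to Psmb11, the Psme genes, the gene on the chromosome of Prkaa2, and the genes of smallest p in each role (up to 2) and pathway list (up to 3). Other genes were named after their values were seen. The members, lists and tests were chosen with earlier results of these data known. The number of arrays limits the precision. Alternatives were the dye term, centring, quantile normalization, probe summary, missing values, array weights, single dyes, left-out arrays and the replicate number as a block. Python 3.11.15, pandas 2.3.3, scipy 1.17.1 and matplotlib 3.10.9 were also used.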

Additional observations from a re-analysis of the deposited data

Results flagged for a closer look

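Among the 88 groups tested (each gene in each genotype), 2 held an animal set apart by a gap wider than Dixon's 95% limit. For values from 1 normal population, chance gives about 1 in 20 groups. The groups here joined both dye orientations with no adjustment for dye, so that rate need not hold. Psma3, an alpha ring subunit, was at -0.48 in KO replicate 4, against -0.027 to 0.21 in the other KO animals. That array had the most empty cells. Psme4 was at 2.00 in KO replicate 1, against 1.06 to 1.36 in the other KO animals. On that array 26.2% of cells were empty, and the Psme4 probes, which lay far apart in level, had values on 10 or 12 arrays each. KO replicate 1 also carried atrial markers, with a median log2 ratio of 5.32 over 4 genes. WT replicate 2 had a higher atrial median, at 5.61, and its Psme4 was 1.24, the lowest in WT. The part of empty cells and of atrial tissue in these values was not tested.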

How the results depend on the processing

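The count of proteasome genes called between genotypes was 0 in all 26 settings, and the median difference stayed below 0, from -0.065 to -0.011. Unadjusted p under 0.05 was reached by 2 genes with heart RNA in Cy5 alone, by 1 without KO replicate 1 and by 0 elsewhere. The share of estimates below 0 was 54.5% with heart RNA in Cy3 alone and 63.6% to 81.8% without single animals. Calls over all features ranged from 0 to 6. Same-numbered WT and KO animals did not deviate together over all features (correlations -0.232 to 0.0218). Such values cannot exclude a pairing with small effects, or with effects on few genes. With the replicate number as a block, the median was -0.046, 81.8% of estimates were below 0, and the pairs differed by -0.066 (Psmb8 minus Psmb5), -0.100 (Psmb9 minus Psmb6) and 0.160 (Psmb10 minus Psmb7), with 0 calls.

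Genes called above and below the reference fell to 9 and 7 among features with a value on all arrays, where 20 of the genes were left to test, and 19 of the 70 single probes were below. Without single animals, 19 to 21 were above and 12 below. The pairs Psmb8 minus Psmb5 and Psmb9 minus Psmb6, near 0 in the main setting, turned to 0.079 and 0.046 with quantile normalization, 0.224 and 0.070 in Cy5 alone, and 0.134 and 0.134 without the 3 arrays with markers of other tissues. The first was 0.026 without the 2 arrays with most empty cells. Without single animals they ranged from -0.066 to 0.096 and from -0.079 to 0.105. Psmb10 minus Psmb7 was -0.098 in Cy5 alone and 0.037 to 0.164 without single animals. In 1 dye orientation or with the block, too few relabellings exist for the exact test to pass, so those settings bear on the sign only. Features with values on all arrays left no pair to compare.

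For single genes 75 of 1578 differences changed sign, 64 of them in genes whose main estimate was within 1 SE of 0 and so had no direction to lose. The other 11 follow. In Cy3 alone these were Psma8 (0.075), Apoa1 (-0.208), Sftpa1 (-0.129) and Ttr (-0.253). In Cy5 alone they were Actc1 (0.060), Cd52 (0.060), Coro1a (0.00083), Myl2 (0.052) and Ubqln2 (0.035). Sftpa1 was -0.091 without the 3 arrays with markers of other tissues and Ttr -0.011 to 0.600 without single animals, lowest without KO replicate 6. Of 584 levels, 16 lost their call and 18 changed sign, of which 2 had a main level beyond 1 SE of 0, both in Cy5 alone (Psme3ip1 0.036, Psmb6 -0.001). The correlation of Psmb8 with Psmb9, at 0.905, had an adjusted p of 0.0625 by exact permutation within genotype and dye, and was 0.805 to 0.973 without single animals. That of Psmb8 with Psmb10 was -0.025 to 0.592 without single animals. The causes of these changes were not tested.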
